A study of Homo sapiens with 18 samples.

Results

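The genes described here are 45 members of the pathways that detect DNA double-strand breaks, repair them by homologous recombination and unhook DNA crosslinks through the Fanconi anaemia proteins. They were taken from a fixed list and matched by symbol, and all 45 were found among the 40916 symbols of the count tables. Their polyadenylated RNA was measured by sequencing in 18 libraries, 3 biological replicates in each of 6 groups. MCF10A, a non-transformed human mammary epithelial line that here expressed a histone H2B-GFP reporter, and HCT116, a human colorectal carcinoma line that was unlabelled, were each grown alone. Mixed cultures were described as 50% of each line. All of these were harvested either without irradiation (NIR) or after 10 Gy of ionising radiation (IR). The harvest is placed at day 2 by the sample titles and at 72 h after irradiation by the series description. MCF10A was grown in an F12 and DMEM mixture with horse serum, EGF, hydrocortisone, cholera toxin and insulin, and HCT116 in McCoy's 5A with fetal bovine serum, so line and medium cannot be told apart. The medium of the mixed cultures and the clonal origin of either line are not given in the sources used here.

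A double-strand break is bound by the MRE11, RAD50 and NBN complex, which activates the kinase ATM, while single-stranded DNA activates the kinase ATR through its partner ATRIP and through TOPBP1. These kinases switch on CHEK2 and CHEK1, which hold the cell cycle, and mark the chromatin around the break, where MDC1, RNF8, RNF168 and TP53BP1 assemble. In S and G2 phase the ends are cut back and BRCA1, PALB2 and BRCA2 prepare the cut strand for exchange with the sister chromatid. At a crosslink, the Fanconi core complex attaches ubiquitin to FANCD2 and FANCI, and nucleases then cut the DNA. Many of these genes are transcribed most strongly in dividing cells.

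The libraries held 25.7 to 40.8 M counts (M, 1e+06), and members had between 53 counts (RAD54B) and 9926 (FANCI) in a library, so that each passed the filter on low counts in every comparison. Levels are CPM, counts per 1e+06 counts of the library, as mean ± SD over 3 libraries unless each library is listed. The 10 basal mammary markers summed to between 12161 and 12939 CPM in the MCF10A NIR libraries and to between 761 and 835 CPM in HCT116 NIR. The 10 intestinal markers summed to no more than 0.854 and to between 12.8 and 14.2 CPM in the same groups. Most intestinal markers were at or near 0 in HCT116 as well, where 8 of 10 had a mean under 1 CPM without irradiation. Of 12 markers of stromal, endothelial and blood cells, 10 had a mean under 1 CPM in each monoculture group; the exceptions in MCF10A were COL1A1 and DCN, at 119 CPM in NIR, and those in HCT116 were COL1A1 and VWF. MCF10A RNA made up an estimated 0.447% ± 0.053 of the RNA in the NIR mixed libraries and 1.24% ± 0.066 in the IR ones (SD, n = 3 each), so the mixed values below are almost wholly those of HCT116 RNA; with means in place of medians over the specific genes the estimates were 0.945% and 2.06%. These are bulk libraries, in which fewer cells with a transcript and less of it per cell cannot be told apart.

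Printed first are the promoters of 3 members that fell strongly after irradiation and held a searched motif before the start. FANCG, EME1 and BARD1, which had a larger fall than RAD54L in HCT116, held no searched motif and were passed over. EXO1 and RAD54B, which had a larger fall than RAD54L in MCF10A, were passed over too. EXO1 held no searched motif before the start, and no promoter sequence was found for RAD54B. MDC1 and UBE2T held the searched letters TTTGAA and CCAAT before the start and are not printed. The printed promoters show the letters in which motifs were searched below. Whether these promoters have a part in the changes was not tested. They are RefSeq sequences of GRCh38.p14 from the 250 bases before the start, in the gene's own direction. FANCA fell most of all members in HCT116, BLM most in MCF10A, and RAD54L encodes a motor protein of strand exchange. Capitals mark the searched letters: CCAAT, read as ATTGG on the other strand, which the factor NF-Y binds, and in FANCA an E2F-type match on the other strand.
FANCA, chr16:89816648-89816897, minus strand: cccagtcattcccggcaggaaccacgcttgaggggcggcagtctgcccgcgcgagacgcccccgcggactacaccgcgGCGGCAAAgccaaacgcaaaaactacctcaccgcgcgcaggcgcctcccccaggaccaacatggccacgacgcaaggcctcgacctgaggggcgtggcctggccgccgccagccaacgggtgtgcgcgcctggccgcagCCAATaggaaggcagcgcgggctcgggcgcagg
BLM, chr15:90717096-90717345, plus strand: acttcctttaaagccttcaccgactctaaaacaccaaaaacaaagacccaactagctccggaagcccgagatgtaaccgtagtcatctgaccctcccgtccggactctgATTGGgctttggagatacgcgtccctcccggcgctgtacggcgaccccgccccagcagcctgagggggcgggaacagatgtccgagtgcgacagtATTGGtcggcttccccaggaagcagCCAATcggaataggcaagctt
RAD54L, chr1:46247438-46247687, plus strand: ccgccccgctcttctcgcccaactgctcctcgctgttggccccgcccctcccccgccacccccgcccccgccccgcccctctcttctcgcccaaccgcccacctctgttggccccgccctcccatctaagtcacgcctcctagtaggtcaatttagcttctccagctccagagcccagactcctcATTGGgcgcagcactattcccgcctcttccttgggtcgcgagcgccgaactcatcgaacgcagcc
FANCA holds 1 CCAAT in the printed direction, BLM holds 3, of which 2 are on the other strand, and RAD54L holds 1 on the other strand.

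RefSeq windows from 250 bases before to 50 after the start were found for 41 of the 45 members, and not for NBN, WRN, RAD54B and FANCI. E2F factors are known to drive genes of S phase, and the cell cycle homology region is bound by a complex that holds down genes of G2 and mitosis in resting cells. The windows were searched on both strands for 4 E2F-type spellings (TTTCGCGC, TTTGGCGC, TTTCCCGC and TTTGCCGC), for 2 spellings of the cell cycle homology region (TTTGAA and TTCGAA), and for CCAAT. A gene counted once per motif, and matches could overlap. An E2F-type match lay in 7 of the 41 members with a window (17.1%), against 3.99% of the 27305 genes with a window. Some members had 2 or 3 windows, and a match in any of them counted. Windows per gene over the 27305 are not given here. The 27305 include genes too low to be tested here, whereas all 45 members were tested. CCAAT lay in 21 of 41 (51.2%) against 39.7% of all genes, and a cell cycle homology region in 6 of 41 (14.6%) against 19.5%. The 7 genes with an E2F-type match are shown with 10 bases on each side of the match, in capitals; they were chosen after their matches were seen.
TOPBP1, chr3:133661931-133661958, minus strand: cgcgcggttgGCGCGAAAgtcggttccc
EXO1, chr1:241848198-241848225, plus strand: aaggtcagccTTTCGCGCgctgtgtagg
XRCC2, chr7:152676103-152676130, minus strand: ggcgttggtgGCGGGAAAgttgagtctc
FANCA, chr16:89816802-89816829, minus strand: ctacaccgcgGCGGCAAAgccaaacgca
FANCC, chr9:95317864-95317891, minus strand: cggggcttccGCGCGAAAccgggaacac
FANCC, chr9:95317738-95317765, minus strand: tcgtcggaatTTTCCCGCgacgccgcgg
FANCD2, chr3:10026425-10026452, plus strand: gtcgggcctgGCGGGAAAgtcgaaaact
GEN1, chr2:17753860-17753887, plus strand: agttgcggggTTTCGCGCcgccggagtc
All 7 genes, which are TOPBP1, EXO1, XRCC2, FANCA, FANCC, FANCD2 and GEN1, were called lower after irradiation in both lines. They make up 7 of the 30 members with a window that were called lower in both lines (23.3%), and those 30 are most of the 41 with a window. Among the same 30, CCAAT lay in 15 (50%) and a cell cycle homology region in 5 (16.7%). A match is a run of letters, and binding at these positions was not measured.

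Most of the 45 transcripts were lower after irradiation in both lines. In MCF10A 40 members fell and 1 rose, where 29.2% of all tested genes fell and 26.2% rose (55.4% changed either way). With upper-quartile factors 57.5% of the called genes had risen in MCF10A, against 47.4%, and the members stood at 39 and 1. In HCT116 35 fell and 2 rose, where 27.2% of all genes fell and 25.3% rose (52.5% either way). In the mixed cultures 34 fell and 2 rose, against 25.4% and 24% of all genes (49.4% either way). The median log2 fold change of the 45 was -0.71 in MCF10A, -0.74 in HCT116 and -0.56 in the mixed cultures, while that of all tested genes was 0.0035, 0.0072 and 0.012. Summed over the 45 genes, MCF10A held 2466 ± 43.6 CPM in NIR and 1602 ± 6.51 in IR. HCT116 held 2971 ± 162 and 1836 ± 67.3, and the mixed cultures 3077 ± 64.3 and 2043 ± 113. Between the monocultures, 33 members were called lower in both lines, 2 were called in opposite directions and 2 were called in neither. A fall of more than 1 on the log2 scale, which is more than a halving, was called for 18 members in MCF10A, 17 in HCT116 and 15 in both. Shares of all genes for these counts over both lines and for halvings are not given here, so they describe the members only. Where a pair of values follows a gene below without the lines being named, the first is MCF10A and the second HCT116.

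**Figure D1:**
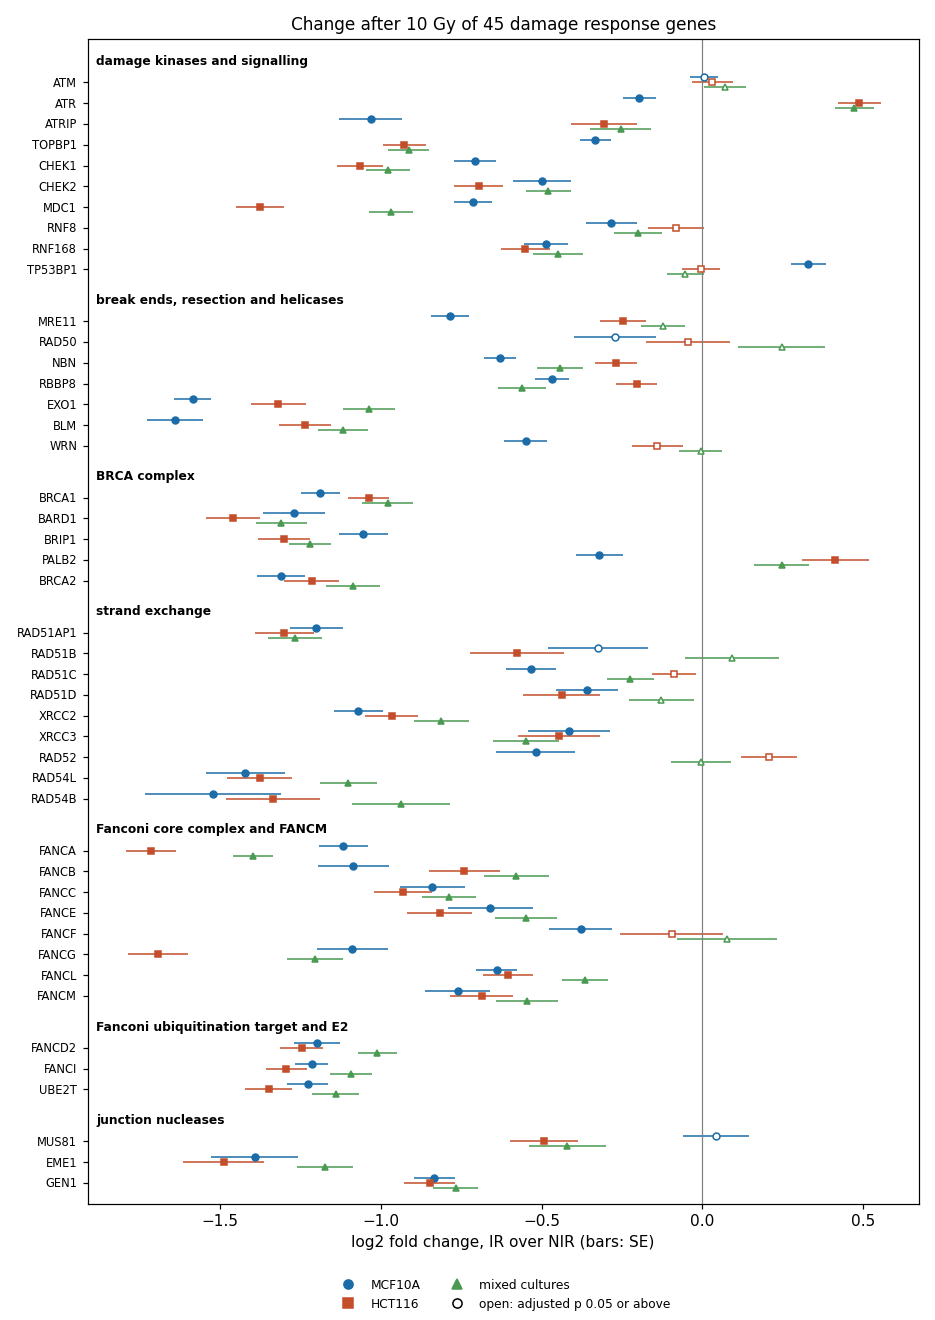
Log2 fold change of each of the 45 genes, IR over NIR, in MCF10A (circles), HCT116 (squares) and mixed cultures (triangles), grouped by role; bars are the SE, and open symbols had an adjusted p of 0.05 or above. Most filled symbols lie left of 0, with medians of -0.71, -0.74 and -0.56, and only ATR, PALB2 and TP53BP1 have a filled symbol on the right.

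Cell cycle genes fell in the same libraries. All 26 genes of an S phase list fell in MCF10A (median log2 fold change -1.16), and 24 of 26 fell and 1 rose in HCT116 (median -1.14). All 26 genes of a G2 and mitosis list fell in each kind of culture, with medians of -1.37 in MCF10A and -1.45 in HCT116. CDKN1A, which encodes the cyclin-dependent kinase inhibitor p21, rose by 1.76 and 2.33 on the log2 scale, and the proliferation marker MKI67 fell, with log2 fold changes of -1.57 and -1.84. The part of fewer dividing cells in the fall of the 45 genes was not tested.

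Other signals moved in the same libraries. The summed basal mammary markers went from 12541 ± 389 to 23681 ± 299.7 CPM in MCF10A, where 8 of 10 were called higher, and from 804 ± 38.5 to 1455 ± 108 CPM in HCT116, where 8 of 9 tested were. The 12 markers of other cells summed to 127 ± 5.91 CPM in MCF10A NIR and 257 ± 7.40 in IR, with LYZ at 0 in both and CD3E and CD68 at 0 in NIR, and to 44.7 ± 4.04 and 33.7 ± 1.52 CPM in HCT116, with LUM, DCN and CD3E at 0 in both. The mitochondrial share of counts was 5.10% to 5.32% in MCF10A NIR and 6.06% to 6.35% in IR, and 8.42% to 8.75% and 11.5% to 12.3% in HCT116. Without mitochondrial and the 10 most abundant genes the members still stood at 40 lower and 1 higher in MCF10A and at 35 and 2 in HCT116. The part of the marker shifts in the fall of the 45 genes was not tested.

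**Figure D2:**
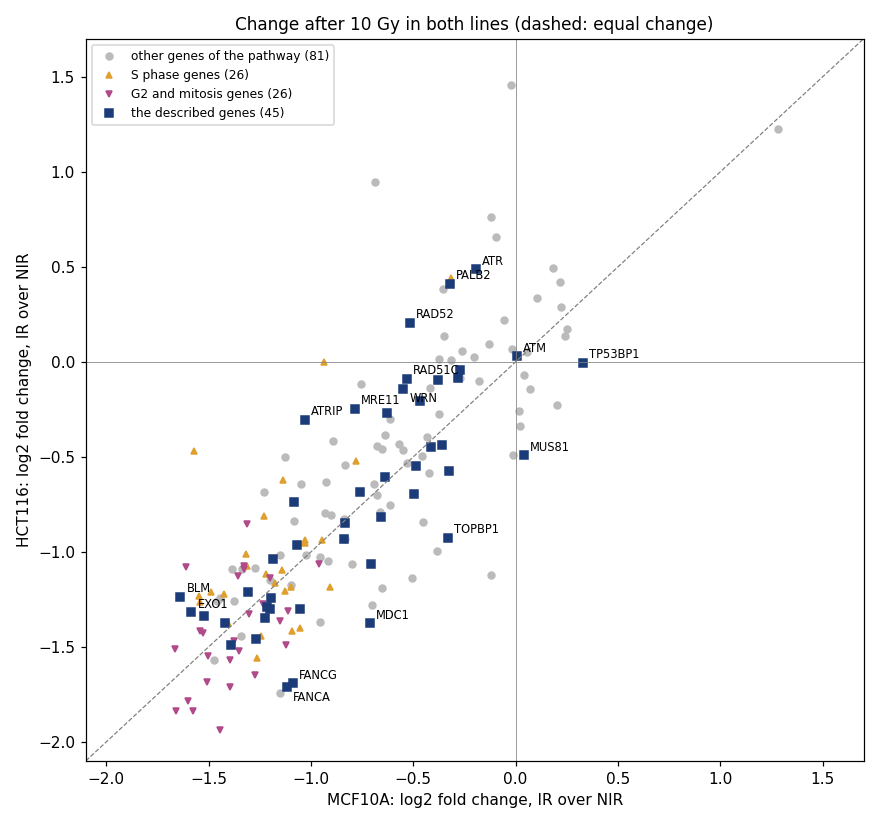
Log2 fold change after 10 Gy in MCF10A (horizontal axis) and HCT116 (vertical axis) for the 45 described genes (squares), 81 other genes of the pathways (grey circles), 26 S phase genes (upward triangles) and 26 G2 and mitosis genes (downward triangles). Most points lie in the lower left with the cell cycle genes, and ATR, PALB2 and RAD52 lie above 0 for HCT116 and below 0 for MCF10A.

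Among the 10 genes of damage kinases and chromatin signalling, 8 fell and 1 rose in MCF10A, 6 fell and 1 rose in HCT116, and 7 fell and 1 rose in the mixed cultures. ATM, the kinase that break ends activate, did not change measurably, at 191 ± 9.59 CPM in MCF10A NIR and 194 ± 3.94 in IR. It was at 134 ± 8.51 and 136 ± 8.08 in HCT116, and its log2 fold changes of 0.0049, 0.03 and 0.07 in MCF10A, HCT116 and the mixed cultures did not pass the test. ATR, the kinase of single-stranded DNA, went in opposite directions in the lines. Its MCF10A libraries held 117, 109 and 124 CPM in NIR and 103, 99.0 and 108 in IR, a log2 fold change of -0.20 (adjusted p 0.0023). Its HCT116 libraries held 102, 88.0 and 88.3 CPM in NIR and 126, 135 and 127 in IR, a change of 0.49 (adjusted p 1.6e-06). All irradiated libraries were below the non-irradiated ones in MCF10A and above them in HCT116. The difference between the changes, HCT116 minus MCF10A, was 0.61 (SE 0.088, adjusted p 4.6e-06), and the change in the mixed cultures was 0.47. The MCF10A fall of ATR went to -0.11 with upper-quartile factors and then did not pass the test.

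ATRIP, which brings ATR to single-stranded DNA, was the signalling gene that fell most in MCF10A. Its MCF10A libraries were at 27.4, 29.8 and 24.0 CPM in NIR and 14.3, 12.9 and 13.2 in IR, and those of HCT116 at 23.1, 20.1 and 22.5 in NIR and 16.3, 19.1 and 17.4 in IR. The groups did not overlap in either line. The log2 fold change was -1.03 (SE 0.099, adjusted p 6.8e-10) in MCF10A and -0.31 (SE 0.10, adjusted p 0.016) in HCT116, and the difference was 0.65 (SE 0.15, adjusted p 8.8e-04). The HCT116 fall was not called without NIR replicate 1, IR replicate 1 or IR replicate 3 of HCT116, where it ranged from -0.37 to -0.25 over the fits that left out 1 library. TOPBP1, which activates ATR, moved the other way between the lines: it fell in both, with log2 fold changes of -0.33 in MCF10A and -0.93 in HCT116 and a difference of -0.67 (SE 0.08, adjusted p 2.8e-07). CHEK1, the effector kinase of ATR, fell, with log2 fold changes of -0.71 and -1.06, and its difference of -0.43 went to -0.23 without MCF10A IR replicate 2 and was then not called. Of ATR, ATRIP, TOPBP1 and CHEK1, the first pair thus had a more positive change in HCT116 and the other pair a more negative one.

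MDC1, the scaffold that binds phosphorylated histone H2AX, fell most of the signalling genes in HCT116. Its HCT116 libraries were at 123, 102 and 109 CPM in NIR and 39.9, 42.9 and 44.9 in IR. In MCF10A the libraries were at 77.8, 77.6 and 81.5 in NIR and 48.8, 51.4 and 46.5 CPM in IR. The irradiated libraries lay below the non-irradiated ones in both, and the order of the lines was reversed: HCT116 was above MCF10A without irradiation and below it after. The log2 fold changes were -1.38 (SE 0.075, adjusted p 4.2e-13) in HCT116 and -0.71 (SE 0.059, adjusted p 3.3e-11) in MCF10A, with a difference of -0.74 (SE 0.096, adjusted p 9.6e-07). CHEK2, the effector kinase of ATM, was at 26.2, 29.4 and 28.0 CPM in MCF10A NIR and 17.9, 21.2 and 21.0 in IR, and at 52.8, 54.4 and 50.4 in NIR and 33.3, 30.8 and 32.9 in IR in HCT116. It fell, with log2 fold changes of -0.50 and -0.70, and the difference of -0.28 did not pass the test (adjusted p 0.069). Of the ubiquitin ligases of break chromatin, RNF168 fell, with log2 fold changes of -0.49 in MCF10A and -0.55 in HCT116. RNF8 fell by 0.28 in MCF10A, and its change of -0.083 in HCT116 did not pass. TP53BP1, which reads these marks and holds back the cutting of ends, was the only member that rose in MCF10A, with 74.4 ± 3.15 CPM in NIR and 94.9 ± 3.55 in IR (a change of 0.33, SE 0.054, adjusted p 7.5e-06). Its HCT116 level was 123 ± 5.05 and 122 ± 3.70 CPM, and the difference between the responses was -0.41 (SE 0.077, adjusted p 1.2e-04), and went to -0.27 without MCF10A IR replicate 2.

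**Figure D3:**
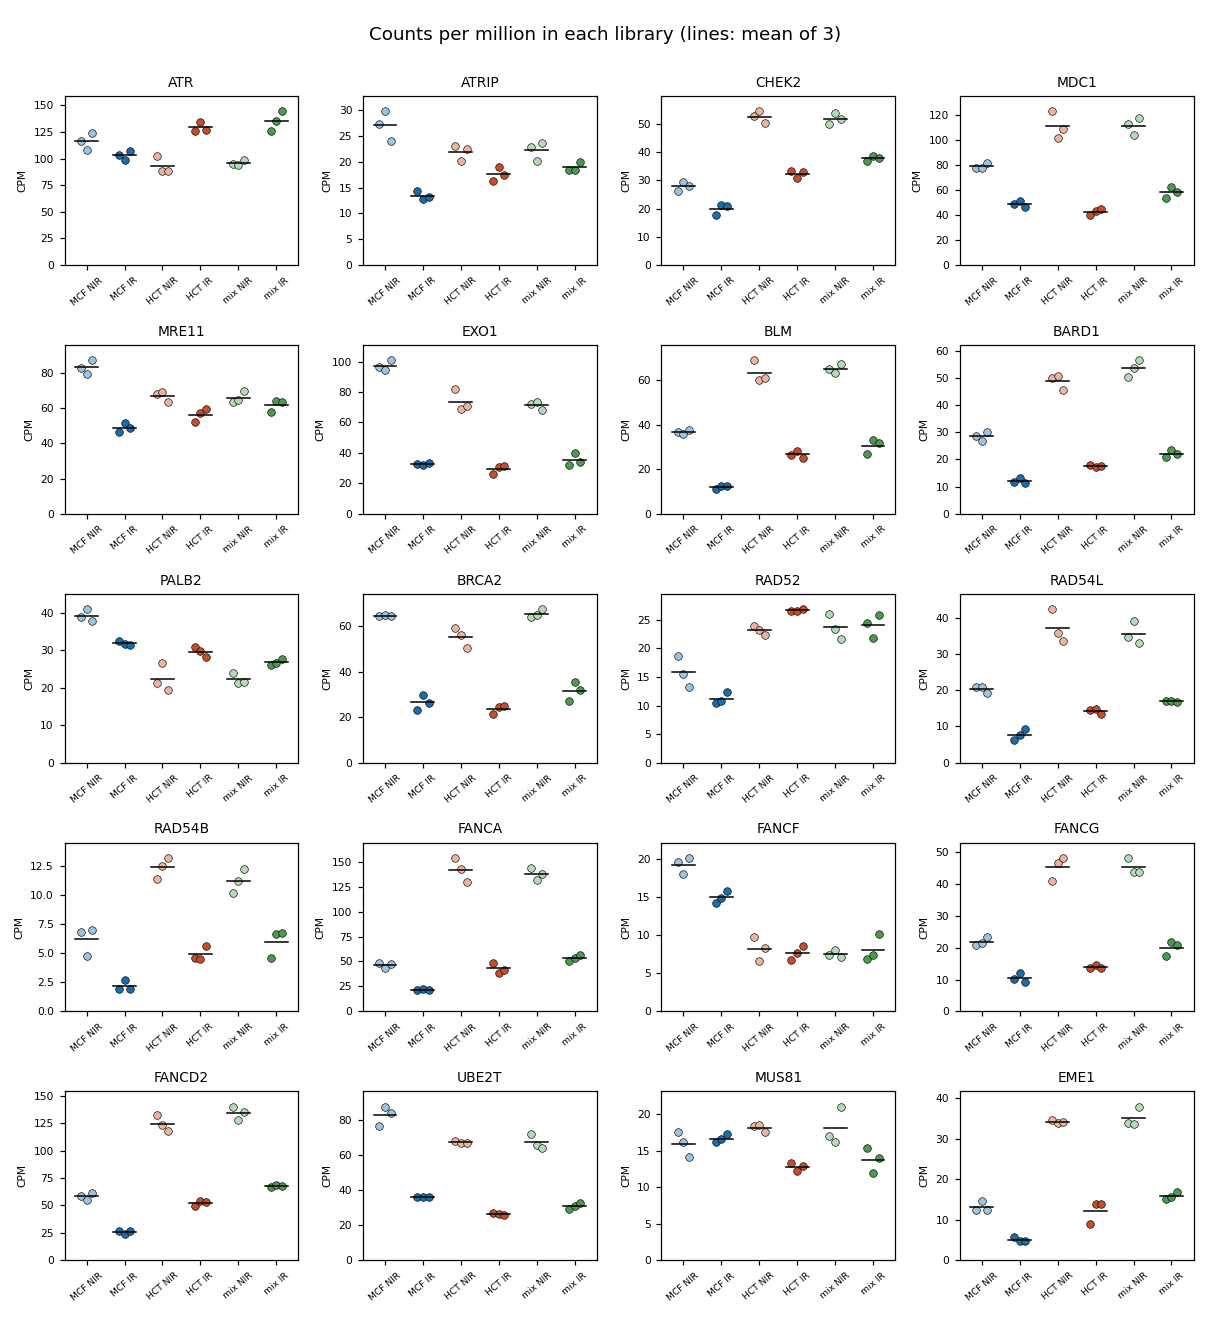
CPM in each of the 18 libraries for the 20 genes whose values are listed by library; each point is 1 library and each line the mean of 3, with every vertical axis starting at 0. ATR and PALB2 go down in MCF10A and up in HCT116 and mixed cultures, MUS81 goes down in HCT116, and EXO1, BLM, BRCA2, FANCD2 and EME1 go down in all 3 kinds of culture.

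Of the 7 genes that handle break ends, 6 fell in MCF10A, 5 in HCT116 and 4 in the mixed cultures, and none rose. EXO1, the nuclease of long-range resection, and BLM, a RecQ helicase that works beside it, fell most. EXO1 libraries were at 96.2, 94.3 and 101 CPM in MCF10A NIR and 33.0, 32.0 and 33.6 in IR, and at 82.1, 68.5 and 70.5 in NIR and 26.3, 30.6 and 31.5 in IR in HCT116. Those of BLM were at 36.8, 36.0 and 37.7 in NIR and 11.2, 12.3 and 12.5 in IR in MCF10A and at 69.1, 60.0 and 60.9 in NIR and 26.6, 28.4 and 25.1 in IR in HCT116. In both genes every irradiated library was below every non-irradiated one of its line. The log2 fold changes of EXO1 were -1.58 (SE 0.058, adjusted p 1.1e-18) in MCF10A and -1.32 (SE 0.085, adjusted p 8.4e-12) in HCT116. For BLM they were -1.64 (SE 0.088, adjusted p 3.1e-15) and -1.24 (SE 0.082, adjusted p 1.2e-11). The BLM difference of 0.33 (adjusted p 0.03) lost its call without MCF10A NIR replicate 3 and without HCT116 NIR replicate 2 or 3, with 0.28 as its lowest value.

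MRE11, the nuclease subunit of the complex that first binds an end, is known to be reduced in HCT116 through a microsatellite mutation that disturbs its splicing. Its libraries were at 82.8, 79.7 and 87.3 CPM in MCF10A NIR, 46.8, 51.6 and 48.7 in MCF10A IR, 68.1, 69.4 and 63.5 in HCT116 NIR and 52.2, 57.1 and 59.3 in HCT116 IR. HCT116 was below MCF10A without irradiation and above it in CPM after, where the fitted log2 difference was -0.033, not called (0.20 with library size alone). Counts per gene do not show splicing, and the part of the mutation in these levels was not tested. MRE11 fell in both lines, with log2 fold changes of -0.78 (SE 0.059, adjusted p 5.6e-12) in MCF10A and -0.25 (SE 0.07, adjusted p 0.005) in HCT116, and the difference was 0.46 (SE 0.091, adjusted p 2.3e-04). NBN, the subunit that recruits ATM, fell, with log2 fold changes of -0.63 and -0.27 in the same order, with a difference of 0.28 (adjusted p 0.0058). RAD50, the ATPase subunit, had log2 fold changes of -0.27 and -0.045, which did not pass the test (adjusted p 0.075 and 0.8). RBBP8, which encodes CtIP, the starter of resection, fell, with log2 fold changes of -0.47 and -0.20, the second with -0.15 as its smallest value and not called without HCT116 NIR replicate 2 or IR replicate 1. WRN, another RecQ helicase, fell by 0.55 in MCF10A and had -0.14 in HCT116, not called, and the difference was 0.33 (adjusted p 0.015). In each of these 7 genes the change was more negative in MCF10A than in HCT116, and the difference was called for MRE11, NBN, BLM and WRN.

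In the BRCA complex, 5 of 5 genes fell in MCF10A, and 4 fell and 1 rose in HCT116 and in the mixed cultures. BRCA2, which readies the cut strand for exchange, was at 64.7, 64.9 and 64.8 CPM in MCF10A NIR and 23.4, 29.8 and 26.4 in IR. In HCT116 it was at 59.2, 56.1 and 50.3 CPM in NIR and 21.5, 24.6 and 24.9 in IR. BARD1, the partner of BRCA1 in its ubiquitin ligase, was at 28.5, 26.8 and 30.1 in NIR and 11.6, 13.1 and 11.3 in IR in MCF10A and at 50.0, 50.5 and 45.5 in NIR and 17.8, 17.3 and 17.7 in IR in HCT116. Neither gene had overlapping groups in either line. BRCA2 had log2 fold changes of -1.31 (SE 0.075, adjusted p 1.6e-14) in MCF10A and -1.21 (SE 0.086, adjusted p 4.1e-11) in HCT116, and BARD1 of -1.27 (SE 0.096, adjusted p 5.4e-12) and -1.46 (SE 0.084, adjusted p 1.2e-12). BRCA1, which promotes resection, fell, with log2 fold changes of -1.19 and -1.04, and the helicase BRIP1, which binds it, with -1.05 and -1.30. Of these 4 genes only BRIP1 was called in the difference between the responses (-0.32, adjusted p 0.033), and it lost that call in 8 of the 12 fits without 1 library, with -0.13 as its smallest value.

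PALB2, which joins BRCA1 to BRCA2, went in opposite directions in the lines. Its MCF10A libraries were at 39.0, 41.1 and 37.8 CPM in NIR and 32.7, 31.6 and 31.6 in IR. Its HCT116 libraries were at 21.3, 26.6 and 19.4 CPM in NIR and 31.0, 29.8 and 28.1 in IR, and the mixed ones at 23.9, 21.4 and 21.5 in NIR and 26.2, 26.6 and 27.6 in IR. The irradiated libraries were lower in MCF10A and higher in HCT116 and in the mixed cultures, with no overlap between treatments in any of the 3. The log2 fold change was -0.32 (SE 0.072, adjusted p 4.1e-04) in MCF10A and 0.41 (SE 0.10, adjusted p 0.002) in HCT116, and the difference was 0.65 (SE 0.13, adjusted p 2.5e-04). With ATR it was 1 of 2 members called in opposite directions. In the mixed cultures the change was 0.25 (SE 0.085, adjusted p 0.021), and it was not called when either of NIR replicates 2 and 3 or of IR replicates 2 and 3 was left out (lowest value 0.21).

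Among the 9 genes of strand exchange, 8 fell in MCF10A, 7 in HCT116 and 6 in the mixed cultures, and none rose. RAD54L and RAD54B, motor proteins that act on chromatin, fell most. RAD54L was at 20.9, 20.7 and 19.3 CPM in MCF10A NIR and 6.17, 7.51 and 9.29 in IR, and at 42.4, 35.7 and 33.4 in NIR and 14.6, 14.8 and 13.3 in IR in HCT116. RAD54B was at 6.82, 4.79 and 7.04 in NIR and 1.95, 2.74 and 1.91 in IR in MCF10A and at 11.4, 12.6 and 13.2 in NIR and 4.57, 4.53 and 5.63 in IR in HCT116. Irradiated and non-irradiated libraries did not overlap for either gene, although RAD54B had the lowest counts of all members. The log2 fold changes of RAD54L were -1.42 (SE 0.12, adjusted p 9.8e-11) and -1.38 (SE 0.10, adjusted p 8.5e-11), and those of RAD54B -1.52 (SE 0.21, adjusted p 5.6e-07) and -1.34 (SE 0.15, adjusted p 5.3e-08), in MCF10A and HCT116. RAD51AP1, which stimulates strand pairing, fell, with log2 fold changes of -1.20 and -1.30.

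RAD51B, RAD51C, RAD51D, XRCC2 and XRCC3, which form complexes that assist strand exchange, had smaller fold changes than the motor proteins. The largest were those of XRCC2, which fell, with log2 fold changes of -1.07 in MCF10A and -0.96 in HCT116. RAD51D fell, with log2 fold changes of -0.36 and -0.44, and XRCC3 fell with -0.42 and -0.45, the second at -0.28 and not called without HCT116 IR replicate 2. RAD51C fell by 0.53 in MCF10A, where HCT116 had -0.088, not called, with a difference of 0.37 (SE 0.10, adjusted p 0.0058). RAD51B fell by 0.58 in HCT116, and its MCF10A value of -0.32 did not pass (adjusted p 0.079). RAD52, which anneals single strands, had MCF10A libraries at 18.7, 15.5 and 13.2 CPM in NIR and 10.4, 10.8 and 12.3 in IR. In HCT116 the libraries were at 24.0, 23.3 and 22.4 in NIR and 26.6, 26.5 and 26.9 in IR, so the irradiated ones were the lower set in MCF10A and the higher set in HCT116. It fell in MCF10A (-0.52, SE 0.12, adjusted p 6.7e-04), and the HCT116 change of 0.21 had an adjusted p of 0.0542. The difference between the responses was 0.65 (SE 0.16, adjusted p 0.0017). With RLE factors, upper-quartile factors or halved counts the HCT116 change was called higher.

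All 8 genes of the Fanconi core complex and its anchor fell in MCF10A, and 7 of 8 in HCT116 and in the mixed cultures. FANCA and FANCG, which bind each other within the complex, fell most in HCT116. FANCA libraries were at 154, 142 and 129 CPM in HCT116 NIR and 48.3, 38.8 and 41.9 in IR, and at 48.8, 43.3 and 47.3 in NIR and 21.2, 22.7 and 21.4 in IR in MCF10A. Those of FANCG were at 41.0, 46.6 and 48.0 in NIR and 13.5, 14.5 and 13.7 in IR in HCT116 and at 20.8, 21.5 and 23.4 in NIR and 10.1, 12.1 and 9.20 in IR in MCF10A. Both genes had HCT116 levels far above those of MCF10A without irradiation, and after it FANCG differed between the lines by 0.18 on the log2 scale, which was not called. The log2 fold changes of FANCA were -1.71 (SE 0.079, adjusted p 2.4e-14) in HCT116 and -1.12 (SE 0.076, adjusted p 6.1e-13) in MCF10A, with a difference of -0.67 (adjusted p 2.6e-05). For FANCG they were -1.69 (SE 0.094, adjusted p 5.8e-13) and -1.09 (SE 0.11, adjusted p 2.0e-09), with a difference of -0.68 (adjusted p 6.4e-04). No other gene of the group was called in the difference.

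FANCL, the ubiquitin ligase of the complex, and FANCB, which sits beside it, fell, with log2 fold changes of -0.64 and -1.08 in MCF10A and -0.60 and -0.74 in HCT116. FANCC and FANCE, which sit in the part that meets the substrate, fell, with log2 fold changes of -0.84 and -0.66 in MCF10A and -0.93 and -0.82 in HCT116. FANCM, the translocase that brings the complex to DNA, fell, with log2 fold changes of -0.76 and -0.69. FANCF, an adaptor of the complex, had the smallest changes of the group. Its libraries were at 19.6, 17.9 and 20.1 CPM in MCF10A NIR and 14.2, 14.9 and 15.8 in IR, and at 9.75, 6.56 and 8.29 in NIR and 6.79, 7.62 and 8.55 in IR in HCT116. The treatments overlapped in HCT116 and not in MCF10A, and the log2 fold changes were -0.38 (SE 0.098, adjusted p 0.0017) in MCF10A and -0.096 (SE 0.16, adjusted p 0.64) in HCT116.

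FANCD2 and FANCI, which close around DNA as a clamp once ubiquitin is attached, and UBE2T, the conjugating enzyme that supplies it, fell in every kind of culture, with log2 fold changes from -1.35 to -1.01. FANCD2 was at 58.8, 54.5 and 61.5 CPM in MCF10A NIR and 26.3, 24.1 and 26.8 in IR, and at 132, 124 and 118 in NIR and 49.9, 53.8 and 53.0 in IR in HCT116. UBE2T was at 76.8, 87.8 and 84.4 in NIR and 36.1, 36.0 and 36.0 in IR in MCF10A and at 68.1, 67.2 and 67.0 in NIR and 27.1, 26.3 and 25.7 in IR in HCT116. Irradiated libraries were the lower set throughout, and the lines kept their order, with FANCD2 higher and UBE2T lower in HCT116. The log2 fold changes of FANCD2 were -1.20 (SE 0.071, adjusted p 3.4e-14) in MCF10A and -1.25 (SE 0.066, adjusted p 2.4e-13) in HCT116, and those of UBE2T -1.23 (SE 0.063, adjusted p 1.6e-15) and -1.35 (SE 0.073, adjusted p 4.4e-13). FANCI, at 250.1 ± 16.6 CPM in HCT116 NIR, fell, with log2 fold changes of -1.21 and -1.29. The differences between the lines were -0.13, -0.16 and -0.20 for FANCD2, FANCI and UBE2T, and none passed the test.

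The nuclease subunits MUS81 and EME1, which cut branched DNA as a pair, changed unequally. MUS81 was at 17.6, 16.2 and 14.1 CPM in MCF10A NIR and 16.2, 16.6 and 17.3 in IR, and at 18.3, 18.5 and 17.6 in NIR and 13.3, 12.3 and 12.9 in IR in HCT116. EME1 was at 12.5, 14.7 and 12.4 in NIR and 5.73, 4.74 and 4.88 in IR in MCF10A and at 34.7, 33.9 and 34.1 in NIR and 8.87, 13.8 and 13.8 in IR in HCT116. The treatments overlapped for MUS81 in MCF10A and in no other of these comparisons. MUS81 had a log2 fold change of 0.042 (SE 0.10, adjusted p 0.76) in MCF10A and of -0.49 (SE 0.11, adjusted p 4.2e-04) in HCT116, with a difference of -0.61 (SE 0.15, adjusted p 0.0016). EME1 fell in both lines, with -1.39 (SE 0.14, adjusted p 9.4e-10) and -1.49 (SE 0.12, adjusted p 7.3e-10). GEN1, which resolves Holliday junctions, fell, with log2 fold changes of -0.83 and -0.85.

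The difference between the responses was called for 17 of 45 members, 9 more positive and 8 more negative in HCT116, where 15.4% and 21.9% of all tested genes were called in these directions (37.3% either way). This test was fitted over 12 libraries with its own scaling, so its value need not equal the gap between the changes of the lines. Its median was -0.053 over the members and -0.10 over all genes, of which 41.3% of the called ones were more positive in HCT116. Without mitochondrial and the 10 most abundant genes the median of all genes was -0.006 and that share 52.5%, and the members stood at 11 more positive and 7 more negative. The positive calls were ATR, ATRIP, MRE11, NBN, BLM, WRN, PALB2, RAD51C and RAD52. The negative ones were TOPBP1, CHEK1, MDC1, TP53BP1, BRIP1, FANCA, FANCG and MUS81. The share of members called was close to that of all genes. Of the 17 calls, 14 held in every alternative fit, the exceptions being CHEK1, BLM and BRIP1.

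Other genes of these pathways, 83 by list, also fell in most cases. In MCF10A 58 of 81 tested fell and 4 rose (median log2 fold change -0.61), and in HCT116 53 of 82 fell and 8 rose (median -0.50). The largest changes in MCF10A were those of CDC25C, the phosphatase that starts mitosis (-1.47), the resection nuclease DNA2 (-1.46) and CENPS, a histone-fold partner of FANCM (-1.45). In HCT116 they were FIGNL1, an ATPase of recombination (-1.74), CDC25C (-1.57) and PPM1D, the phosphatase WIP1 that reverses damage signalling, which rose by 1.46. PPM1D had a log2 fold change of -0.024 in MCF10A, not called, and the difference was 1.40 (SE 0.10, adjusted p 5.3e-11). Chosen after their values were seen, EME2, an alternative partner of MUS81, rose by 1.28 in MCF10A and 1.23 in HCT116, opposite to EME1, and ERCC1, a subunit of another structure-specific nuclease, rose by 0.18 and 0.50. SLX1A had no count in the MCF10A libraries and at most 0.170 CPM in any other, and did not pass the filter on low counts in either line; POLN did not pass it in MCF10A.

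Without irradiation the lines differed in 82.2% of members and in 74.8% of all tested genes. After irradiation the shares were 75.6% and 74.9%, so the members stood near the background, most closely after irradiation. Without irradiation the split by direction was as follows. HCT116 was higher in 23 and lower in 14 of 45, where 38.7% of all tested genes were higher and 36.1% lower (74.8% either way), and the median log2 difference was 0.18. After irradiation it was higher in 20 and lower in 14, against 38.1% and 36.8% of all genes (74.9% either way), with a median of 0.14. With upper-quartile factors the split after irradiation became 24 higher and 9 lower, and with library size alone 26 and 8. The median of all genes then moved from 0.049 to 0.25 without irradiation and from 0.037 to between 0.22 and 0.27 after it, and a difference in CPM between the lines carries that shift against the fitted fold change. Over all called genes 51.8% were higher in HCT116 without irradiation, and 62.4% with upper-quartile factors, with which the members stood at 26 higher and 12 lower. FANCA, FANCF, EME1 and PALB2 differed by more than 1 on the log2 scale without irradiation.

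FANCA and EME1 were higher in HCT116 without irradiation, by 1.41 and 1.18 on the log2 scale, and after it by 0.75 and 1.02. FANCF and PALB2 were lower, with log2 differences of -1.42 (SE 0.14, adjusted p 3.3e-08) and -1.01 (SE 0.10, adjusted p 6.6e-08) without irradiation and of -1.20 and -0.34 after it, where PALB2 was not called with upper-quartile factors or library size alone (smallest value -0.11). By role, 6 of 9 genes of strand exchange and 5 of 8 of the core complex were higher in HCT116 NIR, among them RAD54B (0.80), RAD54L (0.67) and FANCG (0.85). Of the 7 genes of break ends, MRE11, NBN, RBBP8 and EXO1 were lower in HCT116 NIR, with log2 differences of -0.51, -0.59, -0.59 and -0.60, and BLM and WRN were higher, by 0.59 and 0.18, the call of WRN being lost in 5 of the 6 fits without 1 library. The kinases ATM and ATR were lower (-0.71 and -0.53) and CHEK2 and TP53BP1 higher (0.72 and 0.53). In all, 19 members were higher and 11 lower in HCT116 at both treatments, and MDC1 alone was higher without irradiation (0.29) and lower after it (-0.43). Of all tested genes 74.8% were called between the lines without irradiation and 74.9% after it. The share of all genes called alike at both treatments is not given here. The log2 difference of TOPBP1 without irradiation, -0.14, turned to 0.063 with upper-quartile factors and to 0.060 with library size alone.

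**Figure D4:**
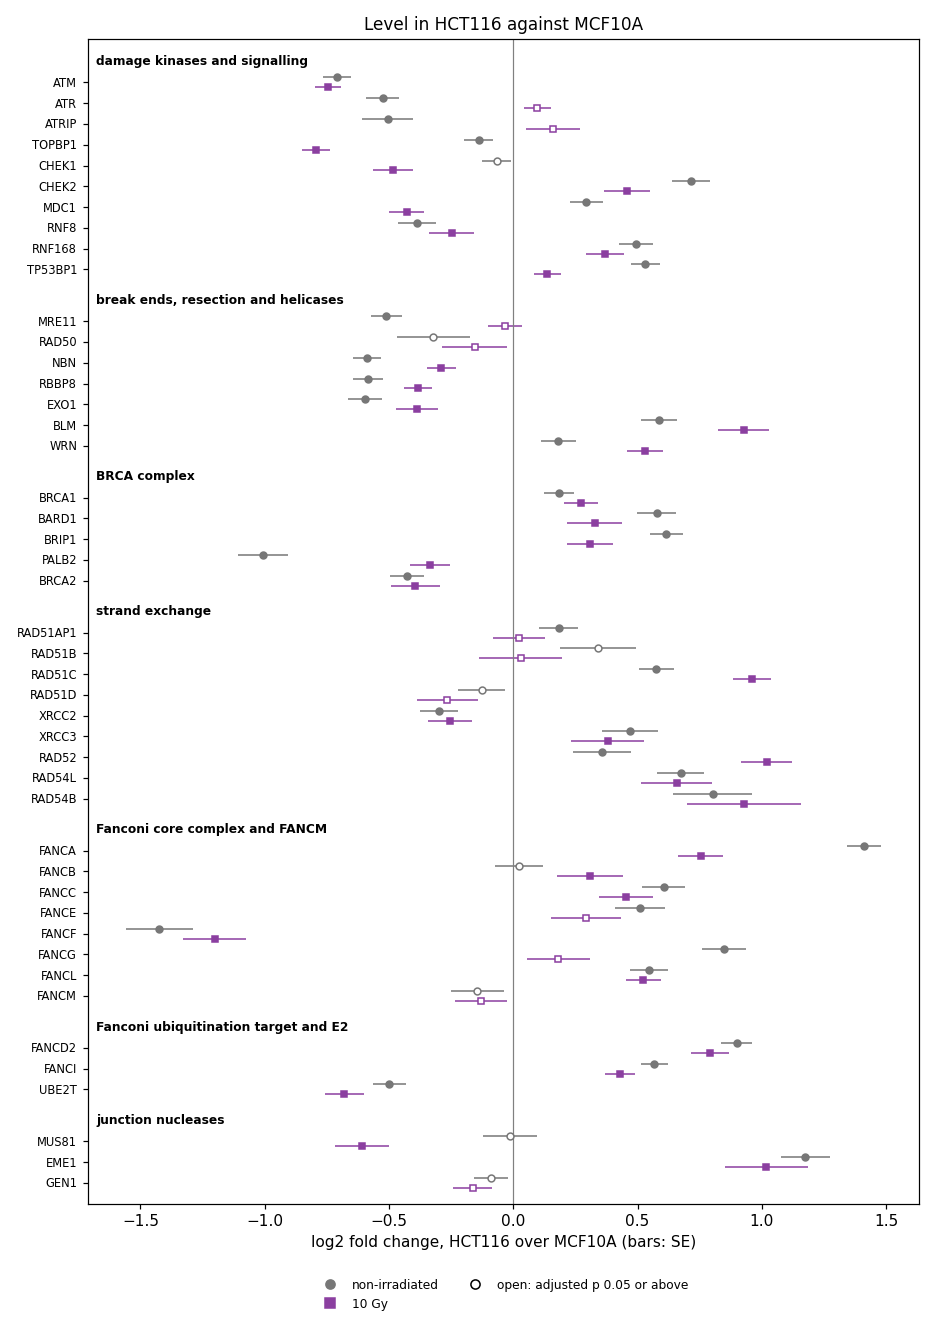
Log2 fold change of HCT116 over MCF10A for each of the 45 genes without irradiation (circles) and after 10 Gy (squares); bars are the SE and open symbols had an adjusted p of 0.05 or above. FANCA and EME1 lie farthest right and FANCF farthest left at NIR, while MDC1 crosses from right to left and ATR, PALB2 and RAD52 shift to the right after irradiation.

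Without irradiation no member differed between mixed and HCT116 cultures by the quasi-likelihood test of edgeR, where 0.887% of all genes were higher and 1.15% lower (2.04% either way). At an unadjusted p under 0.05, 6 members were higher and 2 lower, and DESeq2 called 2, NBN (0.27) and BRCA2 (0.26). Shares of all genes at an unadjusted p are not given here for either treatment. After irradiation 10 members were higher in the mixed cultures and none lower, against 5.08% and 3.48% of all genes (8.56% either way). At an unadjusted p under 0.05 the lower count was 1, and the median log2 difference was 0.17, against 0.0032 over all tested genes. The 10 were MDC1, BARD1, BRCA2, RAD51D, XRCC2, FANCA, FANCG, FANCD2, FANCI and GEN1, spread over 6 of the 7 roles. In these libraries 22 of the 26 G2 and mitosis genes were also higher in the mixed cultures (median 0.37), as were 3 of the 26 S phase genes, and the basal mammary markers summed to 1757 ± 156 CPM against 1455 ± 108. The part of either in the 10 calls was not tested.

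FANCG was the largest of these differences. Its mixed IR libraries were at 17.3, 21.7 and 20.9 CPM, all above the HCT116 IR libraries listed earlier, and the log2 difference was 0.51 (SE 0.11, adjusted p 0.0017). MDC1 was at 53.7, 62.1 and 58.3 CPM in mixed IR, again above every HCT116 IR library (0.44, SE 0.071, adjusted p 8.2e-05). FANCD2 mixed IR libraries were at 67.2, 69.1 and 67.4 CPM (0.37, SE 0.063, adjusted p 1.6e-04) and those of FANCA at 50.6, 53.0 and 56.1 (0.30, SE 0.076, adjusted p 0.011), with no overlap with HCT116 IR for either gene. RAD51D, BRCA2, FANCI, XRCC2, BARD1 and GEN1 had differences of 0.42, 0.40, 0.32, 0.31, 0.31 and 0.25. MDC1, FANCG, FANCD2 and FANCI held their calls in every alternative fit, and the count of 10 ranged from 6 to 13 when 1 library was left out and was 18 with replicate number as a block. Of the others, the call was lost in 5 of 6 fits without 1 library for BARD1, 4 for GEN1, 3 each for RAD51D, XRCC2 and FANCA (with 0.23 as the lowest value of FANCA) and 1 for BRCA2.

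Of the 36 members called in the response of the mixed cultures, 34 were also called in the same direction in HCT116, where 37 were called. The exceptions, RNF8 and RAD51C, had -0.20 and -0.22 in the mixed cultures. The mixed libraries held almost wholly HCT116 RNA, and the share of all genes called alike in both responses is not given here, so these counts describe the members only. In the test of the difference between these responses, 12 members were higher and 1 lower at an unadjusted p under 0.05. The share of all genes at that threshold is not given here. After adjustment the test called 1 member higher and none lower, where 0.681% of all genes were higher and 0.149% lower (0.83% either way). That member was MDC1, which was at 113, 104 and 117 CPM in mixed NIR, within the range of the HCT116 NIR libraries. It fell, with log2 fold changes of -0.97 in the mixed cultures and -1.38 in HCT116, a difference of 0.42 (SE 0.10, adjusted p 0.0496). Of the fits without 1 library, 11 of 12 did not call it, and they gave 0.32 to 0.46.

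**Figure D5:**
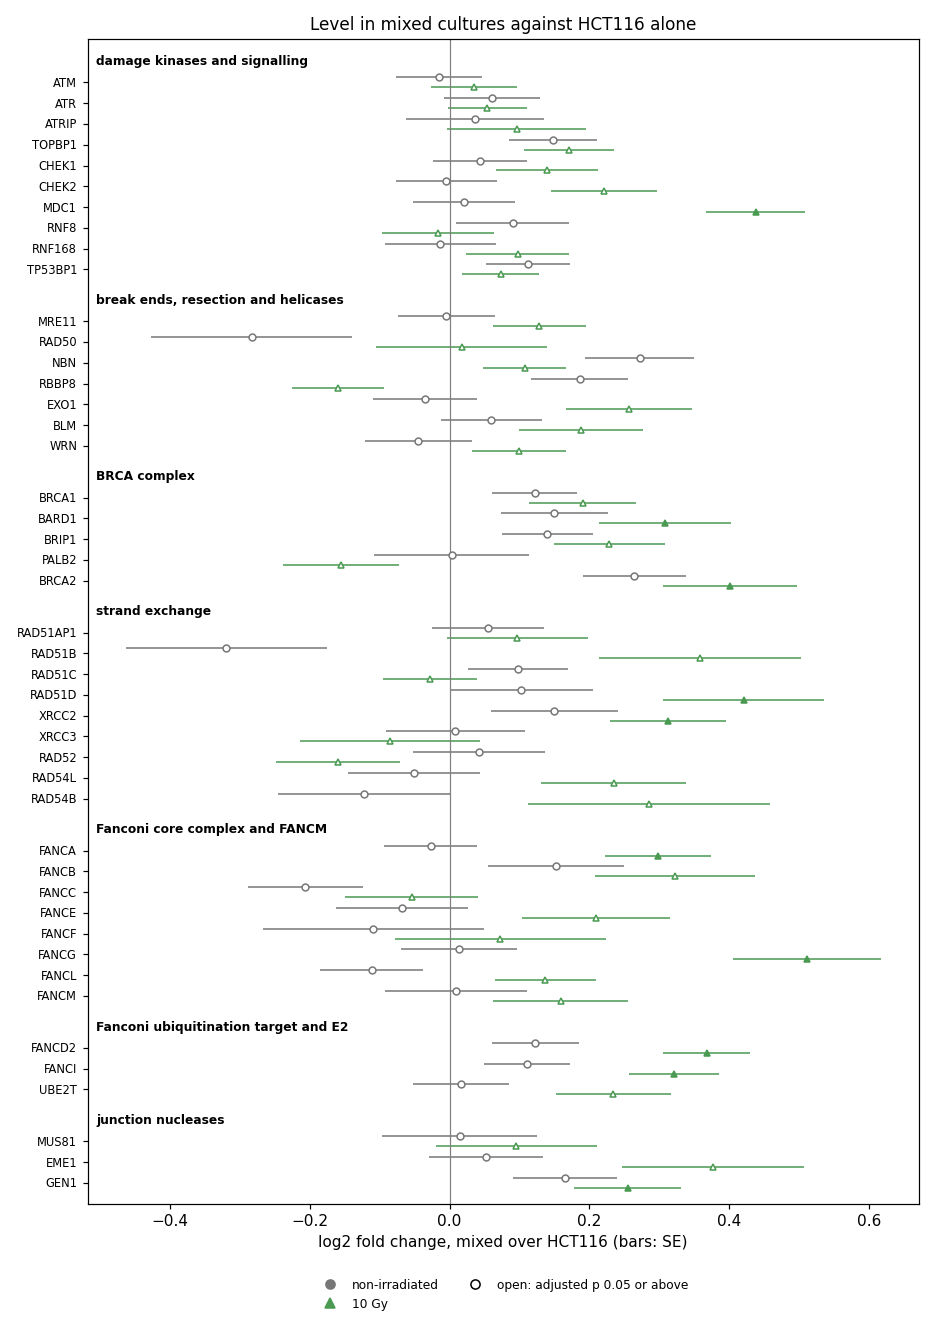
Log2 fold change of mixed over HCT116 cultures for each of the 45 genes without irradiation (circles) and after 10 Gy (triangles); bars are the SE and open symbols had an adjusted p of 0.05 or above. All circles are open, while 38 of the 45 triangles lie right of 0 and 10 are filled, with FANCG farthest right. Of all 17137 genes tested after 10 Gy, 8675 had a positive value.

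A search by name found 15 symbols of close copies or overlapping genes of members. It looked for a member's symbol followed by P, AS, OS or DT. Positions were not compared, so overlapping genes with other names were not found. BRCA1P1 had group means between 0.383 and 0.592 CPM. The copies of CHEK2 and MRE11 were listed at a mean of 0, and the overlapping genes FANCD2OS and MDC1-AS1 had little signal beside their partners, at no more than 0.161 CPM in any group mean. Levels of the copies of FANCD2, RAD51AP1, RAD52 and RBBP8 are not given here. The library kit marks strand, but the strand setting of the counting is not given in the sources used here, so reads of overlapping genes were not told apart further.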

How the data were processed

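Each of the 18 libraries came with a table of raw counts per gene symbol, which the authors deposited without normalization. RNA was extracted with TRIzol and libraries made with a stranded poly(A) kit, per the labels' protocols. STAR, fastp, featureCounts and GRCh38 are named, per the submitters' processing notes, without versions or roles; the annotation, the strand setting and how read mates were counted are not given in the sources used here. Of the values from 1 to 10, 68.3% were even, so fits on halved counts were added as an alternative.

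Members, gene lists and the rules for naming genes were chosen with earlier results of these data known. Groups were taken from the sample titles, which call the replicates biological; where they were not separate cultures, p-values measure only the spread between libraries. CPM is the count times 1e+06 over the library total. Each comparison was fitted on all genes of its own groups that passed filterByExpr, with TMM factors and the 2-sided quasi-likelihood test of edgeR 4.0.16 in R 4.3.3, and p-values were adjusted over all tested genes with Benjamini-Hochberg. A gene was called at an adjusted p under 0.05. Differences between responses are interaction terms. Standard errors are the log2 fold change over the square root of its F value. Values in every library are given for the member with the largest called change of its role in either response, between the lines without irradiation or in the difference of responses, for members called in opposite directions, and for any called between the mixed and HCT116 responses. Of other pathway genes, the 3 with the largest change per line are named.

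The lists comprised 83 other genes of the pathways, 26 S phase and 26 G2 and mitosis genes, and markers of basal mammary, intestinal and other cells. The MCF10A share of the RNA was estimated from genes specific to 1 line, with a mean of at least 20 CPM there and less than 1 CPM in each library of the other. The median ratio of mixed to monoculture CPM over the MCF10A genes was divided by the sum of that median and the one over the HCT116 genes. Alternatives were RLE, upper-quartile and no factors, DESeq2 1.42.0, no filter, halved counts, leaving out mitochondrial and the 10 most abundant genes, 1 fit over all libraries, replicate number as a block, and leaving out each library. Same-numbered libraries were not taken as pairs: in 0 of 15 pairs of groups was every correlation of residuals over 0.1. The fits were also run on simulated data, with a common spread for all genes and fewer changed genes than the line responses called. That run does not measure accuracy on these data. Promoter windows are those of RefSeq on GRCh38.p14. Results on some genes, and an alteration that the series description gives for HCT116, are not reported here.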

Additional observations from a re-analysis of the deposited data

Results flagged for a closer look

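The change after irradiation differed between HCT116 and MCF10A, by the test of the difference itself, for 17 of 45 members, beside 37.3% of all tested genes, so the share of members was near the background. On the log2 scale, HCT116 minus MCF10A, it was more positive for ATR (0.61), ATRIP (0.65), PALB2 (0.65), RAD52 (0.65), MRE11 (0.46), RAD51C (0.37), BLM (0.33), WRN (0.33) and NBN (0.28). ATR and PALB2 fell in MCF10A and rose in HCT116, though the MCF10A fall of ATR went to -0.11 and was not called with upper-quartile factors. ATRIP, MRE11, NBN and BLM fell in both lines, with the larger fall in MCF10A. The HCT116 fall of ATRIP and the difference for BLM (lowest value 0.28) were each not called in 3 fits without 1 library. RAD51C, WRN and RAD52 were called lower in MCF10A and not called in HCT116.

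It was more negative for MDC1 (-0.74), FANCG (-0.68), FANCA (-0.67), TOPBP1 (-0.67), MUS81 (-0.61), CHEK1 (-0.43), TP53BP1 (-0.41) and BRIP1 (-0.32). MDC1, FANCG, FANCA, TOPBP1, CHEK1 and BRIP1 fell in both lines, with the larger fall in HCT116, MUS81 was called in HCT116, and TP53BP1 rose in MCF10A. The differences for CHEK1 and BRIP1 did not hold in every fit: that of CHEK1 went to -0.23 without MCF10A IR replicate 2 and was not called, and that of BRIP1 was not called in 8 of 12 fits without 1 library (smallest value -0.13). The genes sit in 6 of the 7 roles, and FANCD2, FANCI and UBE2T had none.

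Between the mixed cultures and HCT116 alone the change differed for MDC1 (0.42), with the smaller fall in the mixed cultures and an adjusted p of 0.0496. It was not called in 11 of 12 fits without 1 library, nor with RLE factors, halved counts, the replicate block, or without mitochondrial and abundant genes.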

How the results depend on the processing

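The limits are the 3 libraries per group, the genotype and media that go with the lines, and counts that were mostly even where low; the lowest member count was 53. In the responses of MCF10A, HCT116 and the mixed cultures 40 of 41, 34 of 37 and 32 of 36 calls held in every alternative. Between the lines 31 of 37 held without irradiation and 23 of 34 after it, and in the difference of responses 14 of 17. The causes of the changes listed here were not tested.

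Members called higher in the mixed response numbered 2, but 1 without the filter, and 1 to 2 when 1 library was left out. Between the lines after irradiation, those lower numbered 9 with upper-quartile factors and 8 with library size alone, against 14. Without irradiation TOPBP1 turned to 0.063 with upper-quartile factors and 0.060 with library size, and CHEK1 to 0.14 with upper-quartile factors; after it MRE11 turned to 0.20 with library size. Over all called genes, 62.4% were higher in HCT116 NIR with upper-quartile factors, against 51.8%.

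Between mixed and HCT116 cultures without irradiation, members higher numbered 2 with DESeq2, 2 without the filter, 1 in 1 fit over all libraries, 2 with replicate number as a block, and 0 to 1 with a library left out. After irradiation they numbered 16 in 1 fit over all libraries, 18 with the block and 6 to 13 with a library left out (6 without Mixed IR replicate 2 or 3), and those lower 1 with the block and 0 to 1 with a library left out. For the difference of these responses, higher members numbered 0 with RLE factors, halved counts, without mitochondrial and abundant genes, and with the block, 2 with library size, DESeq2 or no filter, and 0 to 1 with a library left out; those lower numbered 1 with DESeq2 or no filter and 0 to 1 with a library left out. Mean correlations of residuals between same-numbered libraries lay between -0.061 and 0.10. The highest were those of HCT116 with mixed cultures at the same treatment, 0.10 in NIR and 0.088 in IR. With the block, all genes called between these cultures went from 146 higher and 189 lower to 319 and 397 in NIR. In IR they went from 871 and 596 to 1263 and 957. Variation shared by these same-numbered libraries was therefore not excluded. The block moved no other count of member calls by over 1.5 times.

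Of all called genes the share higher moved from 43.6% to 63.8% (mixed against HCT116, NIR) and from 59.4% to 80.5% (IR) in 1 fit over all libraries, and from 82.0% to 60.6% for the difference of these responses with DESeq2.

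The share of MCF10A RNA became 0.345% and 1.07% (NIR and IR) with genes of at least 50 CPM, and 0.945% and 2.06% with means in place of medians.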

Other observations

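The other genes of these pathways held several whose responses differed between the lines; those named here were chosen after their values were seen. REV3L, the catalytic subunit of the translesion polymerase zeta, rose in HCT116 by 0.76 on the log2 scale and had -0.12 in MCF10A, not called, with a difference of 0.80 (SE 0.11, adjusted p 2.5e-06). SHLD1, a subunit of the shieldin complex that protects break ends with TP53BP1, had log2 fold changes of -0.69 in MCF10A and 0.95 in HCT116, the second not called, and the difference was 1.56 (SE 0.53, adjusted p 0.021). SHLD2, of the same complex, had -0.76 and -0.11, the second not called, with a difference of 0.57 (SE 0.081, adjusted p 4.1e-06). In the other direction, SFR1, a cofactor of strand exchange, had -0.12 in MCF10A, not called, and -1.12 in HCT116, a difference of -1.08 (SE 0.13, adjusted p 4.8e-07). Over the 82 other pathway genes tested, 10 were called more positive and 13 more negative in HCT116 in the difference of responses, beside 37.3% of all tested genes called either way.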
